A study of Sus scrofa with 18 samples.

Results

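The SOX family was examined in fetal pig brain through 9 members, SOX1, SOX2, SOX4, SOX6, SOX8, SOX9, SOX11, SOX12 and SOX21, which were matched by gene name in the table of counts per gene. Of the 9 members, 5 had a row of their name among the 31908 genes of the table: SOX21 of SOX group B2, SOX11 of group C, SOX6 of group D, and SOX8 and SOX9 of group E. SOX1, SOX2, SOX4 and SOX12 had no row of that name and were not analysed here. All 5 members found passed the filter on low counts and were tested among 16325 genes. The whole brain of 18 fetuses, from Landrace x Large White gilts bred to LR-M6 boars, was sequenced as mRNA at gestation day (GD) 45, GD60 or GD90. The fetuses received no treatment. Each gestation day held 3 female and 3 male fetuses, and no genotype was altered in any of the 6 groups. Fetuses are named here by their piglet number as replicate.

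SOX proteins are transcription factors that bind the minor groove of DNA through a conserved HMG box, and they are sorted into groups by its sequence. In the developing brain, group B1 proteins (SOX1, SOX2 and SOX3) are known to hold cells in a neural progenitor state, while group B2 proteins (SOX14 and SOX21) are known as repressors that can oppose them. Group C proteins (SOX4, SOX11 and SOX12) are known for driving neuronal genes in young neurons, group D proteins (SOX5, SOX6 and SOX13) for timing neuronal and oligodendrocyte fates, and group E proteins (SOX8, SOX9 and SOX10) for making glia.

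The start of the HMG box is shown because it holds a stretch common to the members. In the RefSeq coding sequences of Sscrofa11.1, the 9 members share a run of 10 residues at this point of the box. The stretch that codes for it is given below for the 5 members found and for SOX10, a relative whose counts are described with them, 5′ to 3′ on the strand of the gene. Capitals mark the codons of the 10 shared residues.

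SOX21 (chr11:63826378-63826467, minus strand): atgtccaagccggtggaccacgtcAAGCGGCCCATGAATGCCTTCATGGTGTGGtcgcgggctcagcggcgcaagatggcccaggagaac
SOX11 (chr3:129799985-129800086, minus strand): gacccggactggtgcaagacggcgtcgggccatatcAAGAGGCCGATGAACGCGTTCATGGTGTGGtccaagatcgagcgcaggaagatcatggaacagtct
SOX6 (chr2:43050399-43050500, plus strand): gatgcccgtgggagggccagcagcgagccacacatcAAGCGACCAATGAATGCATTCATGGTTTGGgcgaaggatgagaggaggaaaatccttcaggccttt
SOX8 (chr3:40829529-40829630, minus strand): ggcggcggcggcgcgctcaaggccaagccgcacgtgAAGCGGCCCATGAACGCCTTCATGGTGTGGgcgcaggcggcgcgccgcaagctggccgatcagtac
SOX9 (chr12:8646932-8647033, minus strand): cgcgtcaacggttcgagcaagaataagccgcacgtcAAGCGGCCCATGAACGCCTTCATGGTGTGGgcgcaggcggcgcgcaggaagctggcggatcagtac
SOX10 (chr5:9892612-9892713, plus strand): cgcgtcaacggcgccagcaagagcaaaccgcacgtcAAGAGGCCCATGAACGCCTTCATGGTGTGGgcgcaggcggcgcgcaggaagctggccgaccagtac

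Each stretch lies within 1 coding exon and within the counted row of its gene. From the first shared codon onward, 66 bases could be aligned without a gap. The 3 group E genes were nearly alike there, with 63 of 66 identical bases between SOX8 and SOX9, 62 between SOX8 and SOX10 and 63 between SOX9 and SOX10. SOX11 and SOX6 shared 44 of the 66 bases. Groups B1 and B2 did not separate over this stretch, since SOX21 shared 61 bases with SOX1 of group B1 and 57 with SOX14 of its own group. Over the 16 SOX genes that hold the shared residues, pairs of the same group had 54 to 64 identical bases (13 pairs, median 57) and pairs of different groups 34 to 61 (107 pairs, median 45). The longest identical run of bases between the coding sequences of any pair was 60, shorter than the 150 bases of a read.

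The 5 rows covered their genes unequally. Of the exonic bases that RefSeq gives, the row held 99.8% for SOX8, 99.9% for SOX9, 51.9% for SOX11, 47% for SOX6 and 18.9% for SOX21, whose row held coding bases only. The row of SOX8 overlapped exons of LMF1 on the opposite strand by 455 bases outside the coding sequence, and whether the counting used strand is not given in the sources used here. The rows of SOX21, SOX11, SOX6 and SOX9 overlapped no exon of another gene.

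Totals ranged from 15118843 to 19729783 counts per library, with a median of 16413097. Levels are given as CPM, the count relative to the library size, which was scaled by TMM factors of 0.849 to 1.07, and a gene was called at an adjusted p under 0.05 (edgeR, quasi-likelihood F test, Benjamini-Hochberg). The 8 neuronal markers summed to between 6176 and 10233 CPM in every library. In a bulk sample, fewer cells of a type and less RNA per cell cannot be told apart. The male GD45 replicate 17 stood apart from the other libraries. It had the lowest TMM factor, and it was the lowest of the 6 GD45 libraries for 36.2% of the tested genes and for all 5 members. Its summed red blood cell markers reached 788 CPM against 247 to 360 in the other GD45 libraries, and its radial glia markers 3560 CPM against 2151 to 2375. Its markers of neurons, choroid plexus, endothelial cells and microglia also summed above the other GD45 libraries (neurons 8765 CPM against 6176 to 7690). Its markers of astrocytes, dividing cells, intermediate progenitors and fibroblasts summed below them (astrocytes 127 CPM against 160 to 251), and those of the oligodendrocyte lineage within them. The part of these differences in the results was not tested, and calls of SOX genes that depend on this library are given with and without it.

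**Figure D1:**
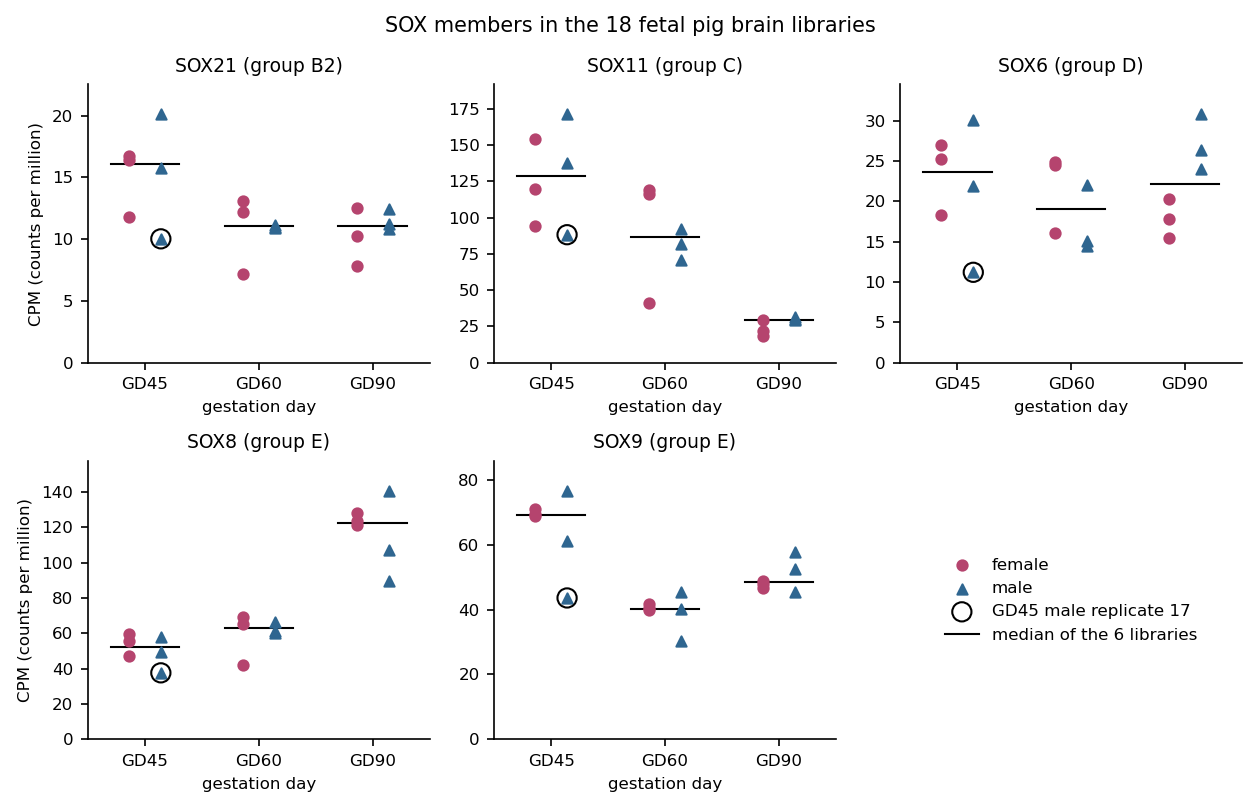
CPM of the 5 SOX members (y axis, from 0) in each of the 18 libraries by gestation day (x axis), with female brains as circles, male brains as triangles, the median of the 6 libraries of a day as a bar, and the male GD45 replicate 17 circled. SOX11 falls to 18.1 to 31.6 CPM at GD90, SOX8 rises to 89.4 to 141 CPM, SOX9 is lowest at GD60, and SOX6 and SOX21 overlap between days.

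SOX11 of group C, known for turning on genes of young neurons, was the member with the steepest fall. At GD45 it reached 93.9, 120 and 154 CPM in the 3 female brains and 137, 171 and 88.2 CPM in the 3 male brains. At GD60 it stood at 119, 116 and 41.1 CPM in females and at 92.0, 71.1 and 81.9 CPM in males. At GD90 it was down to 21.5, 29.1 and 18.1 CPM in females and 29.3, 31.6 and 30.4 CPM in males. All 6 GD90 brains lay below every GD60 and GD45 brain, whereas GD60 and GD45 brains overlapped. Here and for the SOX genes below, the share of all genes whose days separated likewise was not counted.

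From GD60 to GD90, SOX11 fell by 2.01 on the log2 scale in females (SE 0.33, adjusted p = 2.9e-04) and by 1.42 in males (SE 0.33, adjusted p = 0.00329). From GD45 to GD90 it fell by 2.42 in females (SE 0.34, adjusted p = 2.44e-05) and by 2.12 in males (SE 0.33, adjusted p = 7.23e-05). From GD45 to GD60 the log2 fold change was -0.41 in females (adjusted p = 0.493) and -0.70 in males (adjusted p = 0.254), and neither was called. Over all 6 brains of a day, the median level was 129 CPM at GD45, 86.9 at GD60 and 29.2 at GD90, 4.41 times higher at GD45 than at GD90. The female GD60 replicate 15, with 41.1 CPM, stood below the next lowest GD60 library (71.1 CPM), and it was also the lowest GD60 library for SOX21 and SOX8. Adjusted p-values stayed under 0.05 for SOX11 in the 4 comparisons with GD90 under all 26 alternatives run for each.

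SOX8 of group E, known in the oligodendrocyte lineage, went the other way. At GD45 it was measured at 55.4, 59.6 and 47.0 CPM in females and 58.1, 49.5 and 37.5 CPM in males. At GD60 the females had 68.9, 65.4 and 41.8 CPM and the males 66.4, 61.0 and 60.1 CPM. At GD90 the females had 128, 124 and 121 CPM and the males 141, 107 and 89.4 CPM. Every GD90 brain lay above every GD60 and GD45 brain, so the days separated at GD90 only.

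SOX8 was 2.12-fold higher at GD90 than at GD60 in females (log2 fold change 1.08, SE 0.20, adjusted p = 6.29e-04) and 1.80-fold higher in males (0.85, SE 0.20, adjusted p = 0.0035). Against GD45, the GD90 level was 2.31-fold higher in females (adjusted p = 1.27e-04) and 2.32-fold higher in males (adjusted p = 1.06e-04). Between GD45 and GD60 the log2 fold change was 0.12 in females (adjusted p = 0.781). In males it was 0.37 (adjusted p = 0.347), although all 3 GD60 values lay above the 3 GD45 values, with 60.1 CPM at GD60 next to 58.1 CPM at GD45. The 4 calls against GD90 held under all 26 alternatives run for each.

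SOX9, also of group E and known for the switch of progenitors to glia, was highest at GD45 and lowest at GD60. Female brains had 71.2, 69.6 and 69.0 CPM at GD45, 40.4, 41.8 and 39.9 CPM at GD60, and 47.9, 46.5 and 48.9 CPM at GD90. These 3 days did not overlap in females. Male brains had 61.2, 76.7 and 43.6 CPM at GD45, 45.3, 30.4 and 40.1 CPM at GD60, and 57.8, 52.5 and 45.4 CPM at GD90. In males GD45 overlapped with both later days through replicate 17, while all GD90 values lay above all GD60 values, by 45.4 against 45.3 CPM at the closest.

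SOX9 fell from GD45 to GD60 by 0.78 on the log2 scale in females (SE 0.17, adjusted p = 0.0112) and by 0.65 in males (SE 0.17, adjusted p = 0.0343). The call in females held under all 26 alternatives. The call in males was lost under 8 of 26 (adjusted p from 0.00208 to 0.387 over the 26), among them those without replicate 6, 9, 11, 14 or 16. The highest came with only the libraries compared, a fit that called 0 of all genes in this comparison. Without replicate 17 the log2 fold change was -0.85 (adjusted p = 0.00208). At GD90 SOX9 was still lower than at GD45 in females (log2 fold change -0.55, SE 0.17, adjusted p = 0.0175). Over the 26 alternatives its adjusted p ran from 5.27e-04 to 0.053, and the call was lost without the female replicate 7 alone. In males the difference was -0.22 (adjusted p = 0.298), and -0.42 without replicate 17 (adjusted p = 0.026, with 0.0114 to 0.941 over all alternatives). From GD60 to GD90 the log2 fold change of SOX9 was 0.23 in females (adjusted p = 0.346) and 0.43 in males (adjusted p = 0.0639), which passed the threshold without replicate 4, 14 or 17 and with only the libraries compared. With the sexes summed, in 1 test of both sexes together, it passed (adjusted p = 0.0476). Without replicate 17 the log2 fold change in males was 0.43 (adjusted p = 0.0145, with 0.0145 to 0.268 over all alternatives).

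SOX10, the relative that completes group E and a known regulator of myelin genes, rose in every interval in both sexes. Its 6 values ran from 12.05 to 19.5 CPM at GD45 (median 17.2), from 25.7 to 32.6 CPM at GD60 (median 30.3) and from 73.5 to 116 CPM at GD90 (median 101). No value of 1 day reached that of the next. It rose by 0.81 and 0.91 on the log2 scale in females and males from GD45 to GD60 (adjusted p = 0.0117 and 0.00631) and by 1.79 and 1.58 from GD60 to GD90 (adjusted p = 2.46e-06 and 8.72e-06). The call of the first rise in females was lost without replicate 18 and with the exon table (adjusted p from 5.54e-04 to 0.0707 over all alternatives), and that in males with only the libraries compared (up to 0.167). The 3 genes of group E thus differed in order over the days, with SOX10 separated between all 3 days, SOX8 at GD90 only and SOX9 with its lowest median at GD60. No test of one gene against another was run.

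**Figure D2:**
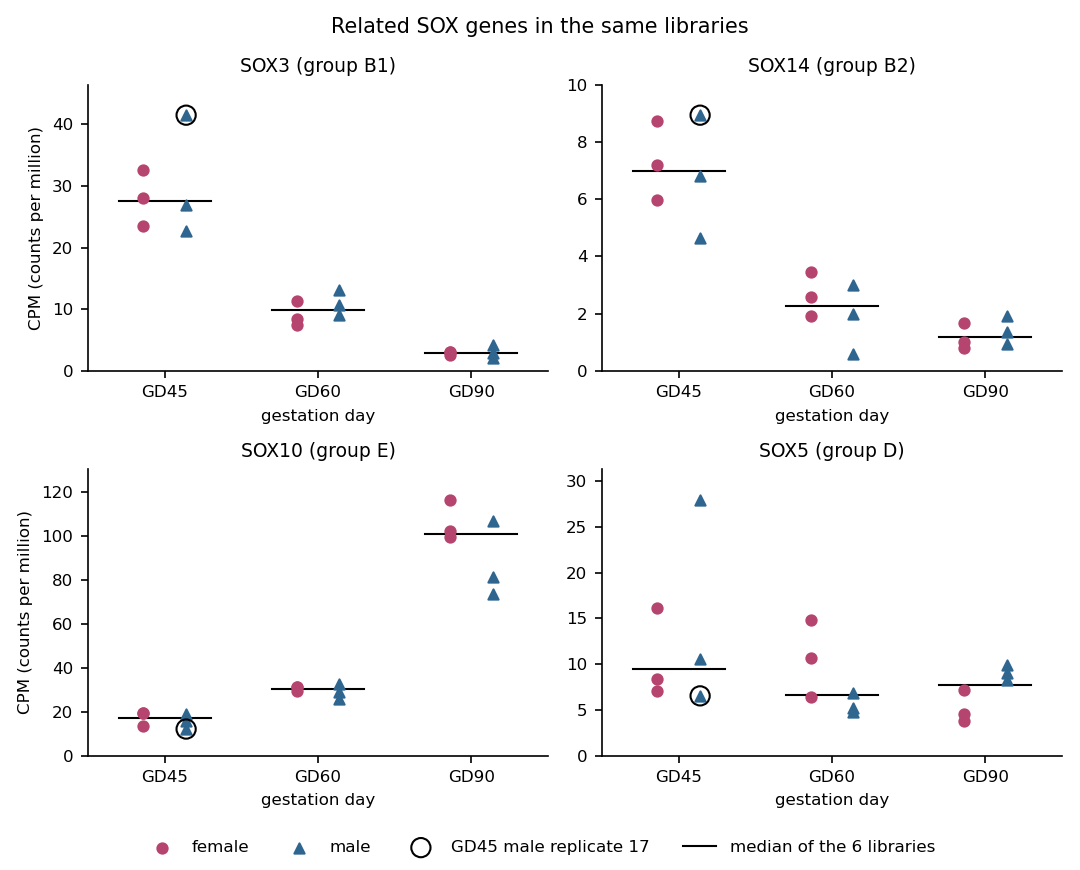
CPM (y axes, from 0) of SOX3, SOX14, SOX10 and SOX5 in each library by gestation day, with symbols as for the members. SOX3 falls and SOX10 rises without overlap between days, SOX14 at GD45 lies above both later days, and SOX5 spreads most at GD45, from 6.53 to 27.95 CPM.

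SOX21 of group B2, known as a repressor that promotes exit from the progenitor state, had the lowest CPM of the 5 members. It measured 11.8, 16.4 and 16.7 CPM in females and 15.8, 20.1 and 10.0 CPM in males at GD45. At GD60 it measured 13.1, 12.2 and 7.16 CPM in females and 11.0, 10.9 and 11.14 CPM in males. At GD90 it measured 7.79, 12.5 and 10.3 CPM in females and 12.5, 10.8 and 11.2 CPM in males. The days overlapped in both sexes, and no comparison was called. The largest estimate was -0.56 for GD90 against GD45 in females (SE 0.26, adjusted p = 0.0947). Without replicate 17, this comparison was called in females (-0.56, adjusted p = 0.0451) and in males (-0.65, adjusted p = 0.0366), against -0.41 in males with it (adjusted p = 0.19). Over all alternatives the adjusted p ran from 0.0208 to 0.289 in females and from 0.0208 to 0.614 in males. The 0.0208 is the same value for both, from 1 test with the sexes summed.

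Calls were made for the relatives of SOX21 in groups B1 and B2. SOX3 of group B1, a progenitor factor, fell from 22.7 to 41.5 CPM at GD45 (median 27.5) to 7.42 to 13.1 CPM at GD60 (median 9.91) and 2.03 to 4.23 CPM at GD90 (median 2.97). Its days did not overlap, and it was called lower in all 6 comparisons of gestation days, by 3.28 on the log2 scale in females and by 3.29 in males from GD45 to GD90 (adjusted p = 1.34e-07 and 1.2e-07). The call of SOX3 from GD45 to GD60 in males was lost with only the libraries compared (adjusted p from 2.73e-06 to 0.101 over all alternatives). SOX14 of group B2, known in groups of interneurons, had a median of 6.998 CPM at GD45, 2.27 CPM at GD60 and 1.19 CPM at GD90. It was called lower at GD60 than at GD45 in both sexes (log2 fold change -1.46 in females and -1.86 in males, adjusted p = 0.0453 and 0.0169), and these calls were lost under 15 of 26 alternatives in females and 3 of 26 in males. In females 13 of the 15 left out 1 library (replicate 1, 2, 3, 5, 6, 8, 9, 10, 11, 12, 13, 15 or 18), and in males replicate 6 or 16 was left out in 2 of the 3. The adjusted p for this first interval ran from 0.00372 to 0.143 in females and from 6.23e-04 to 0.247 in males. From GD45 to GD90, SOX14 was called lower in both sexes, and these calls held under all 26 alternatives. The log2 fold change there ran from -3.00 to -2.45 in females (adjusted p up to 0.00215) and from -2.56 to -2.05 in males (up to 0.00472).

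SOX6 of group D, known in cortical interneurons and in oligodendrocyte precursors, showed no called change between days. Its values were 18.3, 26.999 and 25.2 CPM in females and 21.9, 30.02 and 11.2 CPM in males at GD45. They were 24.5, 24.9 and 16.0 CPM in females and 22.05, 15.1 and 14.5 CPM in males at GD60. At GD90 they were 15.4, 20.3 and 17.8 CPM in females and 23.96, 26.4 and 30.8 CPM in males. The GD90 males were thus above all GD90 females and above all GD60 males, while the female days overlapped. The share of all genes that separated in this way was not counted.

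The log2 fold change of SOX6 from GD60 to GD90 was 0.65 in males (SE 0.28, adjusted p = 0.0839) and -0.29 in females (adjusted p = 0.482). The test of the difference between these changes gave 0.94 (SE 0.40, adjusted p = 0.232), and males against females at GD90 gave 0.60 (SE 0.28, adjusted p = 0.367), so neither was called. The estimate in males was called without replicate 4 or 17, without replicate 17 at 0.65 (adjusted p = 0.0201, with 0.0116 to 0.9 over all alternatives). The difference between the sexes in this change was then 0.93 (adjusted p = 0.0498, with 0.0498 to 0.626 over all alternatives). With only the 6 GD90 libraries in the fit, males against females gave 0.60 (adjusted p = 0.0475, with 0.0475 to 0.807 over all alternatives), in a fit that called 1062 genes. With the exon table, SOX6 was called lower at GD90 than at GD45 in females (adjusted p = 0.0325, with up to 0.954 over all alternatives).

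Its relatives of group D were SOX5, known for the placement of deep-layer cortical neurons, and SOX13. SOX5 ranged from 6.53 to 27.95 CPM at GD45, from 4.72 to 14.8 CPM at GD60 and from 3.83 to 9.86 CPM at GD90. None of its comparisons was called in the filtered and TMM-scaled edgeR fit of 6 groups with all libraries. With all libraries, SOX5 was called lower from GD45 to GD60 in males without the filter on low counts and with DESeq2. Without replicate 17, SOX5 was called lower from GD45 to GD60 in males (-1.79, adjusted p = 0.0129, with 0.00767 to 0.394 over all alternatives), against -1.43 with it (adjusted p = 0.0814). From GD45 to GD90 it was then called lower in males (-1.10, adjusted p = 0.0385, with 0.023 to 0.894 over all alternatives) and in females (-1.02, adjusted p = 0.0404, with 0.0234 to 0.397). From GD60 to GD90 it was called lower in females (-1.02, adjusted p = 0.0493, with 0.0297 to 0.628), and the difference between the sexes in this change was 1.71 (adjusted p = 0.0486, with 0.0367 to 0.449). With replicate 17, these 4 estimates were -0.73 (adjusted p = 0.18), -1.02 (adjusted p = 0.0885), -1.03 (adjusted p = 0.106) and 1.72 (adjusted p = 0.21). Both comparisons of GD90 in females were also called without replicate 14. Like SOX6, SOX5 was higher in all GD90 males (8.22 to 9.86 CPM) than in all GD90 females (3.83 to 7.23 CPM), with a log2 difference of 0.80 (adjusted p = 0.396). Such a separation of the sexes was not counted over all genes. SOX13 lay between 10.3 and 18.8 CPM in all libraries and was called higher in males from GD45 to GD90 alone (log2 fold change 0.41, adjusted p = 0.0373). This call was lost under 10 of 26 alternatives (adjusted p from 0.0289 to 0.165). Among these were library size alone, no filter, the exon table, only the libraries compared, the sexes summed and the fits without replicate 1, 2, 8 or 17. Without replicate 17 the log2 fold change of SOX13 was 0.28 (adjusted p = 0.165).

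**Figure D3:**
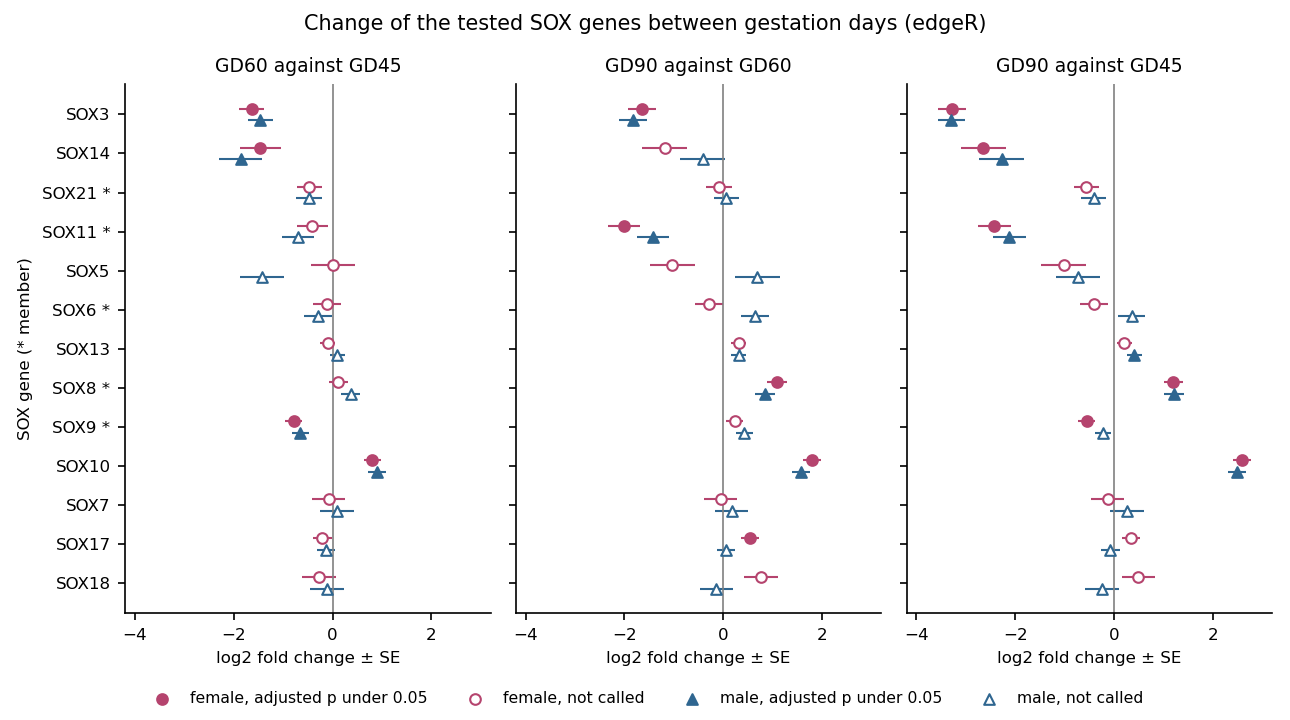
Log2 fold change with its SE (x axis) of the 13 SOX genes tested (y axis, members with an asterisk) for the 3 pairs of gestation days, females as circles and males as triangles, filled where the adjusted p was under 0.05. SOX3 lies left of 0 and SOX10 right of 0 in each panel, SOX11 and SOX8 are filled in both panels with GD90, and the SOX6 estimates of the sexes lie on opposite sides of 0 at GD90.

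The counts of called members are set beside those of all genes. From GD45 to GD60, 0 of 5 members were called higher and 1 lower in females, where 4.34% of tested genes were called higher and 2.88% lower. In males the counts were 0 and 1 of 5, where 3.08% of genes were called higher and 2.53% lower. The lower member was SOX9 in both sexes, and DESeq2 called 1 member in each. At an unadjusted p under 0.05 the counts were 1 in females and 2 in males, where SOX11 with an estimate below 0 was the other. Of the 16325 tested genes, 3500 in females and 2960 in males passed at this unadjusted threshold. The split of all genes in females depended on the scaling, with 60.1% of the called genes higher with TMM factors and 49.7% with library size alone.

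From GD60 to GD90, 1 of 5 members was called higher (SOX8) and 1 lower (SOX11) in females, where 13.7% of genes were called higher and 13.4% lower. The same members were called in males, with 18.5% of genes higher and 16.0% lower. From GD45 to GD90, 1 member was called higher (SOX8) and 2 lower (SOX11 and SOX9) in females, with 20.0% and 18.9% of genes called. In males SOX8 was called higher and SOX11 lower, with 23.4% and 24.3% of genes called. The median log2 fold change of the 5 members was -0.41 and -0.48 in females and males from GD45 to GD60, -0.09 and 0.43 from GD60 to GD90, and -0.55 and -0.22 from GD45 to GD90. The median of all tested genes ran from -0.04 to 0.01 over these 6 comparisons. Since the 3 intervals share libraries, they are not independent of each other.

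Males and females were compared at each gestation day, a question the series was designed for. No member was called at GD45, where 0.0919% of genes were called, at GD60 (0.0980% of genes) or at GD90 (0.0980% of genes). At an unadjusted p under 0.05 the counts were 0, 0 and 1 of 5 members, where 423, 784 and 2213 of the 16325 tested genes passed. DESeq2 called 0 members on each day. For the interaction of sex and gestation day, 0 members were called in each of the 3 intervals, where 0% of genes were called. At an unadjusted p under 0.05, 333, 3232 and 1395 of all genes passed for GD45 to GD60, GD60 to GD90 and GD45 to GD90, and DESeq2 called 0, 254 and 1 gene. Among the members the unadjusted count was 1, SOX6 from GD60 to GD90, and DESeq2 called 0. SOX11 at GD90 was higher in all 3 males (29.3 to 31.6 CPM) than in all 3 females (18.1 to 29.1 CPM), with a log2 difference of 0.41 (SE 0.33, adjusted p = 0.511). How many of all genes separated the sexes likewise was not counted. The differences of SOX8 and SOX9 between the sexes ran from -0.21 to 0.12 on the log2 scale over the 3 days, with an SE of 0.17 to 0.20.

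SOX18 and SOX17 of group F are known in blood vessel endothelium. SOX18 ran from 17.6 to 50.8 CPM over the 18 libraries, and it was highest in replicate 17 at GD45 (50.8 CPM) and in the female replicate 2 at GD90 (49.9 CPM). From GD60 to GD90 in females its log2 fold change was 0.77 (adjusted p = 0.106), which was called without replicate 15 or 17 (without replicate 17 at 0.78, adjusted p = 0.0198, with 0.0198 to 0.329 over all alternatives). SOX17 was called higher from GD60 to GD90 in females (0.54, adjusted p = 0.0415), a call lost under 13 of 26 alternatives (adjusted p from 0.0262 to 0.169), among them those without replicate 2, 3, 5, 6, 9, 12, 13, 15 or 18. SOX7 stayed between 1.17 and 4.60 CPM. SRY and SOX30 did not pass the filter, with at most 1 and 3 counts in a library. SOX15 had no row of that name.

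Levels of different genes were compared per length of the counted exons, as CPM divided by that length in kilobases (FPKM). At GD45 SOX11 was the highest SOX gene counted, with a median of 79.1 FPKM (54.3 to 105). SOX21 (19.4), SOX9 (19.1) and SOX8 (13.7) followed among the members, with ranges that overlapped each other, and SOX6 was at 2.31 FPKM. At GD60 SOX11 was at 53.5 FPKM (25.3 to 73.3) and above the range of SOX8 (11.0 to 18.1). At GD90 the order had changed, with SOX8 at 32.1 FPKM (23.4 to 36.9) above SOX11 at 18.0 (11.11 to 19.4). SOX9 and SOX21, each with a median of 13.3 FPKM, overlapped with SOX11 and with each other. SOX10 at 27.2 FPKM (19.9 to 31.4) overlapped with SOX8. These orders depend on the unequal share of each gene that its row holds.

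**Figure D4:**
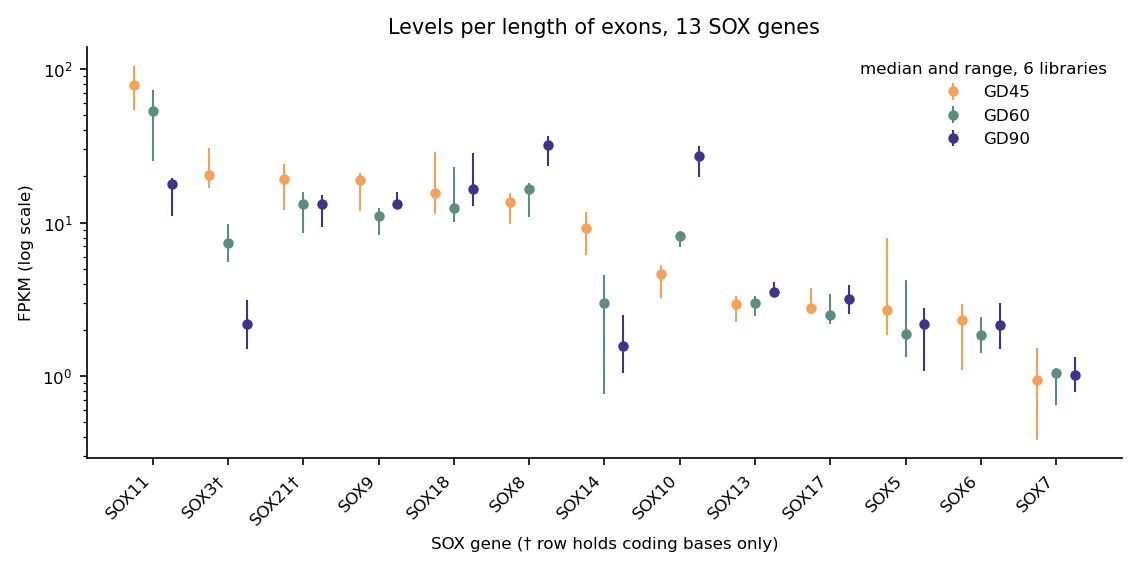
FPKM on a log axis (y) of the 13 SOX genes tested (x), as the median and range of the 6 libraries of each gestation day, with a dagger on rows that hold coding bases only. SOX11 leads at GD45 and GD60 with medians of 79.1 and 53.5 FPKM, and SOX8 and SOX10 lead at GD90 with 32.1 and 27.2 FPKM.

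Genes known as partners or targets of each group were counted beside the members. From GD60 to GD90, 13.7% of all tested genes were called higher and 13.4% lower in females, and 18.5% and 16.0% in males. Of the list for group E, 7 of 8 genes had a row, and 6 of 7 were called higher from GD60 to GD90 in females and 7 of 7 in males, with 0 lower. Among them the myelin gene MBP rose by 5.23 on the log2 scale in females and by 5.41 in males. The precursor factors OLIG2 and NKX2-2 rose by 0.90 and 1.00 in females and by 0.93 and 0.99 in males. From GD45 to GD60, 1 of the 7 was called higher in each sex (OLIG1), in the interval in which SOX9 fell and SOX10 rose. Over all tested genes, 4.34% in females and 3.08% in males were called higher from GD45 to GD60. The seventh gene, NFIA, a glial factor, had a log2 fold change of -1.14 in females (adjusted p = 0.181) and 1.83 in males (adjusted p = 0.0301) from GD60 to GD90.

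Of the list for group C, all 5 genes were tested. From GD60 to GD90, when SOX11 fell in both sexes, 0 of 5 were called lower in females and 3 of 5 in males, namely TUBB3 (-0.67), STMN1 (-0.92) and TEAD2 (-0.91). Over all tested genes, 13.4% in females and 16.0% in males were called lower in that interval. TUBB3 and STMN1 are known for microtubules of neurons, and TEAD2 for growth control in progenitors. Doublecortin (DCX), a marker of young neurons, and PRDM8 were not called. Of the list for group B1, 7 of 8 genes had a row, and 0 were called higher and 1 lower in females and 2 lower in males from GD45 to GD60, 0 higher and 2 lower in each sex from GD60 to GD90. Over all tested genes, 2.88% in females and 2.53% in males were called lower from GD45 to GD60. From GD45 to GD90, 0 of the 7 were called higher and 3 lower in females, and 1 higher and 4 lower in males. In that interval 20.0% of all tested genes were called higher and 18.9% lower in females, and 23.4% and 24.3% in males. NES, an intermediate filament of progenitors, was called lower in all 6 comparisons. The gene called higher was POU3F1, a POU factor (log2 fold change 0.98, adjusted p = 0.0268), and POU3F3 and POU3F4 were not called. PAX6, a progenitor factor, fell from GD45 to GD90 by 1.69 in females and by 1.33 in males on the log2 scale, while SOX3 fell by 3.28 and 3.29. These lists were counted and not tested as sets.

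Summed markers of brain cell types are given over the same days, and some lists moved more than others. The 10 markers of the oligodendrocyte lineage summed to a median of 218 CPM at GD45, 358 at GD60 and 2918 at GD90, and all 10 were called higher from GD60 to GD90 in both sexes, the interval in which SOX8 and SOX10 rose. Over all tested genes, 13.7% were called higher and 13.4% lower in females in that interval, and 18.5% and 16.0% in males. The 5 of 6 astrocyte markers counted summed to 207, 380 and 1395 CPM, with 3 of 5 called higher in females and 4 of 5 in males from GD60 to GD90. SOX9, known in astrocytes, was not called in this interval in the fit of all 6 groups. The 5 of 6 markers of dividing cells counted went from 265 to 112 and 56.7 CPM. Median sums also fell for choroid plexus (1234, 927 and 588 CPM) and red blood cells (336, 200 and 163 CPM). The 3 of 4 markers of intermediate progenitors that were counted (EOMES, NEUROD4 and NEUROG2) went from 121 to 40.9 and 2.08 CPM. All 3 were called lower from GD60 to GD90 in both sexes, the interval in which SOX11 fell. From GD45 to GD60, where SOX11 was not called, 3 of 3 were called lower in females and 2 of 3 in males. In that interval 2.88% and 2.53% of all tested genes were called lower. The part of these shifts in the levels of the SOX genes was not tested.

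**Figure D5:**
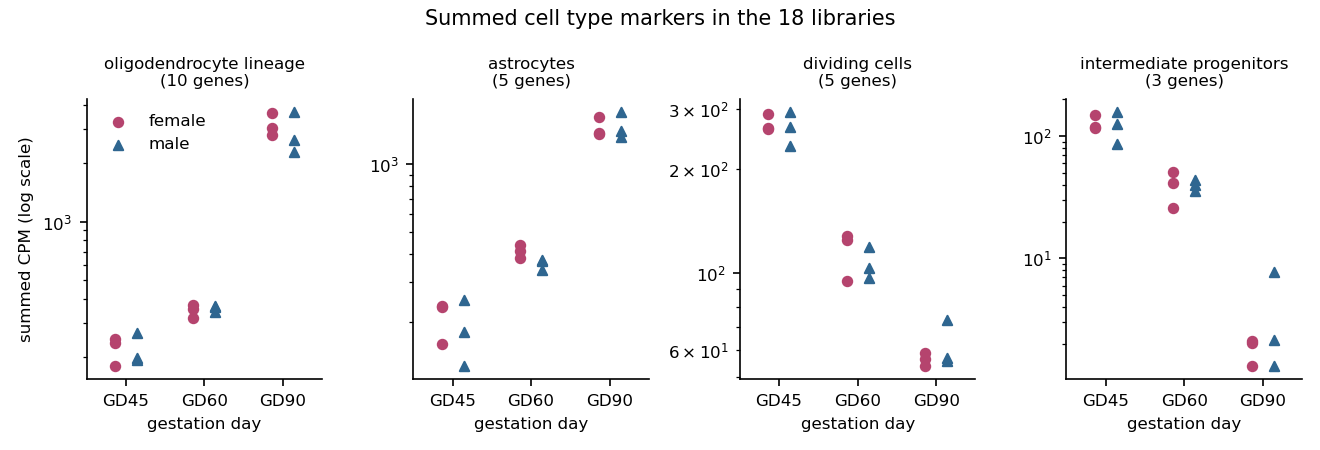
Summed CPM on log axes (y) of 4 marker lists in each library by gestation day (x), female brains as circles and male brains as triangles. Oligodendrocyte markers reach 2275 to 3684 CPM at GD90 from 179 to 267 CPM at GD45, and intermediate progenitor markers fall to a median of 2.08 CPM.

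The genes most like each member were the 2 with a symbol, outside the SOX family, whose log2 CPM, each centred on its own mean, differed least from the member over the 18 libraries, among 12790 genes with a mean of at least 1 CPM. For SOX11 they were PLEKHG2 and ZBTB12, with a root mean square difference of 0.33 and 0.36 where SOX11 itself varied with an SD of 1.06. For SOX8 they were EML2 (0.18) and TNS3 (0.19), with median levels of 53.2 and 52.1 CPM at GD45 and 120 and 116 CPM at GD90. For SOX9 they were ZFP36L1 (0.18) and CAPZA1 (0.18), for SOX6 DOCK1 (0.14) and AGGF1 (0.15), and for SOX21 FBXL14 (0.15) and SF3B3 (0.17). The SD of the member itself was 0.587 for SOX8, 0.359 for SOX9, 0.404 for SOX6 and 0.365 for SOX21. These are descriptions over shared libraries, in which depth and composition are common to all genes.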

How the data were processed

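Reads were quality-trimmed by the authors (Trimmomatic), mapped to Sscrofa11.1 (HISAT2) and assigned to features (featureCounts). The deposited files hold raw counts per gene, exon and transcript, not normalized. The gene counts were used, with the 2 runs of 4 libraries summed, and the exon counts served as an alternative. The options for strand and multiple matches are not given in the sources used here. Gene lengths are the merged exons of each row, from which FPKM was computed. Genes passing filterByExpr (16325 of 31908, with 99.9% of the counts) were scaled by TMM and fitted in 1 model of 6 groups with edgeR 4.0.16 in R 4.3.3, and compared by the quasi-likelihood F test with Benjamini-Hochberg adjustment over all tested genes. Folds are of the later day over the earlier, and of males over females. P-values measure the spread between fetuses. A female and a male fetus of each day share a litter size, and the labels do not say whether they are littermates. The members and lists were chosen with earlier results of these data known. Genes named are the members, the other SOX genes, those partners, targets and markers that the counts needed, and the 2 genes most like each member. SOX sequences and exons are those of RefSeq on Sscrofa11.1. The steps were checked on simulated counts. DESeq2 1.42.0 was an alternative, beside library size without TMM factors, 2 filters, the exon table, only the libraries compared, left-out libraries, both sexes summed and a block of litter size. With both sexes summed, the counts of a female and a male fetus of the same day and litter size were added. Each comparison of days then has 1 test, which is listed under females and under males.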

Additional observations from a re-analysis of the deposited data

How the results depend on the processing

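The counts of called members were recomputed under 26 alternatives for each of the 12 comparisons. For GD60 against GD45 in males, where 1 member was called, 0 were called with library size alone, with the exon table and with only the libraries compared (a fit that called 0 of all genes), and 0 to 1 with each library left out (0 without replicates 6, 9, 11, 14 or 16). For GD90 against GD45 in males, with 2 called, 4 were called without both GD45 fetuses of the lowest labelled brain weights (replicates 17 and 18) and with the sexes summed, and 2 to 4 with each library left out (4 without replicate 17). For GD90 against GD60 in males, with 2 called, 4 were called without replicates 17 and 18 and with only the libraries compared, and 2 to 4 with each library left out (4 without replicate 4 or 17). For the interaction from GD60 to GD90, 0 to 1 were called with each library left out (1 without replicate 17, SOX6), and for males against females at GD90, 1 was called with only the libraries compared. The other 7 counts stayed within 1.5 times of their value, and those of 0 stayed at 0. Among the 7, GD90 against GD45 in females, with 3 called, ran from 2 to 4 with each library left out. No SOX gene that was called changed its direction under any alternative (754 estimates), and 56 of 1274 estimates of members that were not called changed sign. Library size alone moved the median log2 fold change of all genes from -0.01 to -0.12 for GD90 against GD45 in females and from -0.02 to -0.11 for GD90 against GD60 in females, and that of the interactions to 0.12 (GD60 to GD90) and 0.16 (GD45 to GD90). The fetuses that share a litter size deviated together in some pairs and not in others. Their correlations ran from -0.093 to 0.424 over 9 pairs, with 0.343 and 0.335 next to the highest. If they are littermates, the results of females and males at a day are not independent. With litter size as a replicate block, 0 members were called in each of the 6 comparisons of sex. The causes of these shifts were not tested. SRY and SOX30, with at most 3 counts in a library, were not measurable at this depth.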

Other observations

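The RefSeq exons of SOX4, a group C gene with no row of its name, overlapped 3 rows without a symbol. These rows were not taken as a measure of SOX4. How far their counts hold reads of SOX4 was not tested, and whether the counting used strand is not given. ENSSSCG00000045069 on the opposite strand shared 2852 bases with the exons of SOX4. Its 6 values ran from 68.4 to 282 CPM at GD45 (median 140), from 57.7 to 176 CPM at GD60 (median 101) and from 18.8 to 50.3 CPM at GD90 (median 43.8). ENSSSCG00000049534 on the same strand shared 411 bases outside the coding sequence, and its median level was 192 CPM at GD45, 99.6 at GD60 and 30.4 at GD90. ENSSSCG00000043011 on the opposite strand shared 174 bases, and its median level was 86.6, 49.0 and 19.5 CPM. In all 3 rows every GD90 library lay below every GD60 library. How many of all genes separated these days likewise was not counted. From GD60 to GD90, 13.4% of tested genes in females and 16.0% in males were called lower. The RefSeq exons of SOX1, SOX2 and SOX12 overlapped no exon of the table.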
